A study of Mus musculus with 4 samples.

Results

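Expression of 10 mammary stem and progenitor markers was followed in 4 primary mouse mammary tumors: Sox9, Sox10, Sox4, Foxc1, Procr, Cd44, Cd24a, Kit, Prom1 and Bcl11a. The genes were picked by symbol as known markers, and all 10 were found among the 23746 rows (23284 symbols) of the expression tables. Every one of them reached 1 FPKM (fragments per kilobase of transcript, normalized for library size, so a level per length) in each of the 4 tumors. They are thus 10 of the 12752 genes that were tested.

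The tumors came from female mice of 2 genotypes. Tumors 26043 and 26044 were WapCre;Rank;Brca1;p53 (triple-mutant), and tumors 26048 and 26050 were WapCre;Brca1;p53 (double-mutant). Floxed Brca1 and p53 alleles are shared by both genotypes, so there was no tumor with intact Brca1 and p53 and no normal gland to compare with, and the genotypes differ in the floxed Rank allele, which encodes the receptor of the progesterone-induced cytokine RANKL. In the WapCreC line used, Cre is active in luminal as well as basal mammary epithelial cells, so other cells of a tumor keep their alleles, and the age of the animals and the grade of each sequenced tumor are not given in the sources used here.

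The mammary epithelium is a bilayer of inner luminal cells, some of which make milk and some of which sense hormones, and outer basal cells, which contract to expel milk. In transplantation assays stem activity is found mostly in the basal layer, and a separate KIT-positive luminal progenitor is held to be the likely cell of origin of many BRCA1-mutant tumors. SOX9 and SOX10 are related transcription factors of the SOXE group that keep or induce stem and progenitor states in this epithelium, and SLUG works together with SOX9. CD24 and CD44 are surface proteins used to sort such cells, PROCR marks a rare basal stem cell, and PROM1 (CD133) marks luminal cells.

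The targeted genes were checked first. Rank (Tnfrsf11a) was at 2.07 and 0.96 FPKM in the triple-mutant tumors 26043 and 26044 and at 10.6 and 11.9 FPKM in the double-mutant tumors 26048 and 26050, which follows the labels. Brca1 and p53 are targeted in both genotypes, so their levels do not tell the labels apart: Brca1 was at 3.26, 3.28, 3.84 and 5.69 FPKM and Trp53 at 15.7, 87.8, 150 and 103 FPKM (in the order 26043, 26044, 26048, 26050, which is kept below), lowest in tumor 26043. The mammary epithelial markers Krt8 and Krt18 reached at least 80.3 FPKM in every tumor. Tumor 26044 stood apart in some genes: Epcam, an epithelial adhesion protein, was at 347, 25.7, 516 and 390 FPKM, and the smooth muscle actin gene Acta2 was at 64.8, 898, 59.7 and 31.8 FPKM. Results are therefore also given without tumor 26044, with the lone triple-mutant tumor then assumed to vary like the others. In RNA of whole tumors, fewer cells of a type and less RNA per cell cannot be told apart. The number of reads behind each value is unknown, and the median half-width of the deposited interval was 8.35% to 8.78% of its midpoint per tumor.

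None of the 10 markers separated the genotypes beyond the spread between tumors. With limma on log2(FPKM + 1) and Benjamini-Hochberg adjustment over all tested genes, 0 of 10 passed an adjusted p of 0.05, against 0% of all tested genes, and 0 of 10 had an unadjusted p under 0.05, against 9.82% of tested genes. The smallest p that exact permutation of 2 against 2 tumors allows is 0.333, and the limma p-values measure only the spread between these tumors. Both triple-mutant tumors lay above both double-mutant tumors for 0 of 10 markers (21.3% of tested genes), and both double-mutant tumors lay above for 1, Cd24a (22.9% of tested genes). For the other 9 the genotypes overlapped, as they did for 55.7% of tested genes. The median log2 fold change, triple-mutant minus double-mutant, was 0.02 over the markers and -0.02 over all tested genes. Without tumor 26044, tumor 26043 lay above both double-mutant tumors for 5 of 10 markers (40.2% of tested genes) and below both for 3 of 10 (31.9%). Without tumor 26043, tumor 26044 lay above both for 2 of 10 (33.2%) and below both for 6 of 10 (45.1%). With a double-mutant tumor left out instead, both triple-mutant tumors lay above the other for 0 of 10 markers (30.8%) and below it for 1 (36.3%) without tumor 26050, and for 2 (36.4%) and 3 (34.6%) without tumor 26048.

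**Figure D1:**
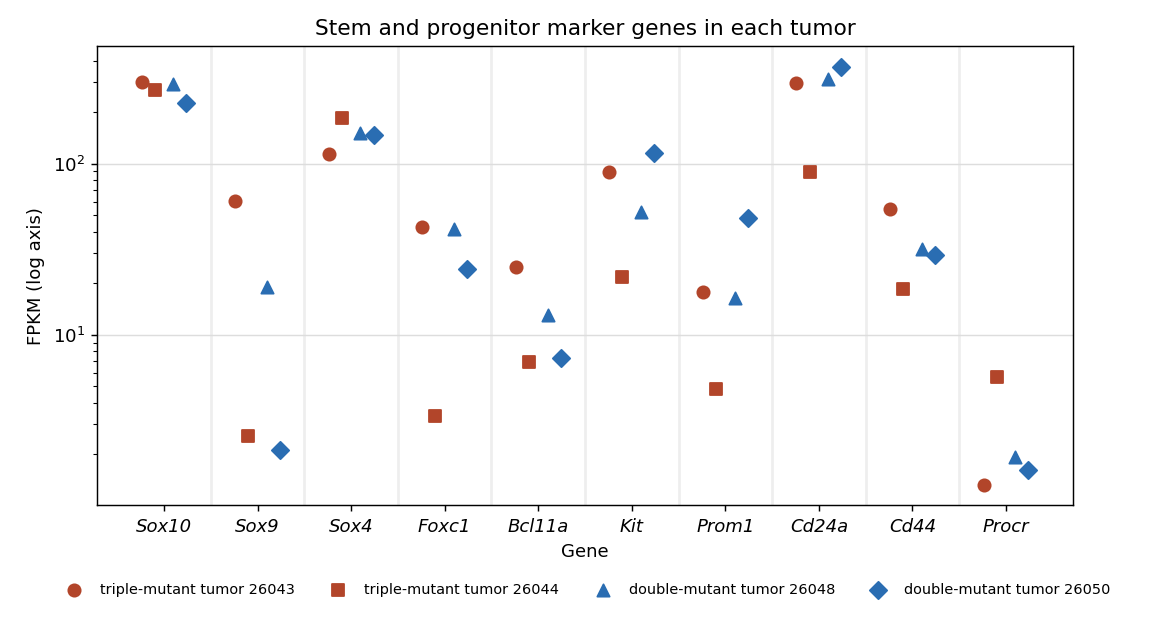
FPKM (log axis) of the 10 marker genes in each tumor, 1 point per tumor, triple-mutant in red and double-mutant in blue. Sox10 lay between 225 and 298.2 FPKM in all 4 tumors, while Sox9 ran from 2.12 to 60.4 FPKM, and tumor 26044 (red squares) was the lowest of the 4 for 6 genes.

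What set the markers apart among themselves was how far the tumors lay from each other. From the lowest to the highest tumor, FPKM differed 28.5-fold for Sox9, 12.7-fold for Foxc1 and 10.02-fold for Prom1, but only 1.63-fold for Sox4 and 1.32-fold for Sox10. Tumor 26044 was the lowest for Foxc1, Cd44, Cd24a, Kit, Prom1 and Bcl11a, 6 of the 10, as it was for 39% of tested genes, and it was the highest for Sox4 and Procr. Tumor 26043 was the highest for 5 markers, Sox9, Sox10, Foxc1, Cd44 and Bcl11a, against 27.9% of tested genes.

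The upstream sequences of 4 of these genes, taken from RefSeq, are shown because the first 3 genes shared their lowest tumor, 26044, in which the fourth, Sox4, was highest. The RefSeq table (GRCm38.p6) held 7 of the 10 markers and none for Sox9, Sox10 and Cd24a. Bases transcribed by the GENCODE M21 gene were removed, so each run ends just before the gene and reads 5′ to 3′ on the strand of the gene. They are, in this order, chr13:31806396-31806632 (plus strand), chr5:75574737-75574915 (plus), chr2:102901666-102901915 (minus) and chr13:28953714-28953949 (minus), and capitals mark the GC box GGGCGG.
Foxc1: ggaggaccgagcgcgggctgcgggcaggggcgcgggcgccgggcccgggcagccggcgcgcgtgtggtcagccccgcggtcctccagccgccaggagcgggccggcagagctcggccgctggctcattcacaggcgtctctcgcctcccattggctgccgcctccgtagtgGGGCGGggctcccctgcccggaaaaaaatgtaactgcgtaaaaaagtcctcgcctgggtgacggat
Kit: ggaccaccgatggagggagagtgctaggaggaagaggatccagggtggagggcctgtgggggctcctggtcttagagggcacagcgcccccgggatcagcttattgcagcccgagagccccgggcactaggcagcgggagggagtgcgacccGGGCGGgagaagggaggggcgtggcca
Cd44: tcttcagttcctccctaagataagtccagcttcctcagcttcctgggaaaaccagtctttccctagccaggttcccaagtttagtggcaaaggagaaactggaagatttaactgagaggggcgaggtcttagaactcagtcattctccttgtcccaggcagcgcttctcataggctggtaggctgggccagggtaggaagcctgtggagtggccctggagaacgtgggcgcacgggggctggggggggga
Sox4: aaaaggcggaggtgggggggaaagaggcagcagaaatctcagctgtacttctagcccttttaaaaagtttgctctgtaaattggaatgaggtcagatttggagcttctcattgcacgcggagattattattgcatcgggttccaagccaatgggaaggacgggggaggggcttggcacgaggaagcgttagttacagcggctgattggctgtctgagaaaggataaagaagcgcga

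The 4 runs differed in base composition. GC content was 72.6% for Foxc1, 69.3% for Kit, 56.4% for Cd44 and 50% for Sox4. In the full 250-base windows before the RefSeq start, Foxc1 held 29 CpG dinucleotides, Kit 17, Sox4 11 and Cd44 5, against a median of 6 over all 32851 windows. Searched on both strands, the GC box was in the Foxc1 and Kit windows, also in the Bcl11a window and a Prom1 window, and in 32.7% of all windows. Bcl11a and Prom1 were also lowest in tumor 26044, and their sequences are not shown. The Bcl11a window (24080445 to 24080694) and this Prom1 window (44101737 to 44101986) lie inside the GENCODE genes, not upstream of them. The box was absent from the windows of Cd44, lowest in tumor 26044, and of Sox4 and Procr, highest there. The SOX core letters ACAATG (10.7% of all windows) and ACAAAG (16.5%) were in none of the windows of the 7 markers. These are matches of letters only.

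Sox10 was the most abundant of the 3 SOX markers and nearly level across the tumors. It drives neural crest, Schwann cell and melanocyte fates and is also made by mammary epithelial progenitors. On chromosome 15 (79154913 to 79164490, mm10), it was at 298.2 and 269 FPKM in the triple-mutant and at 292 and 225 FPKM in the double-mutant tumors. The 4 values lay close together, the genotypes overlapped, and in every tumor Sox10 stood at or above percentile 96.3 of tested genes by level. The log2 fold change was 0.14 (standard error 0.29, 95% interval -0.61 to 0.90, adjusted p = 0.883 from limma), so the interval leaves out a 2-fold difference on this log2(FPKM + 1) scale, which is 1 log2 unit. Without tumor 26044 it was 0.22. Its FPKM was 1.51 to 1.83 times the midpoint of its own Cufflinks interval, a disagreement within the deposited tables that touches its level.

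Sox9, by contrast, was the most variable marker. SOX9 acts in luminal progenitors and in cartilage, among other tissues. On chromosome 11 (112782210 to 112787757, mm10), it was at 60.4 and 2.55 FPKM in the triple-mutant and at 19.1 and 2.12 FPKM in the double-mutant tumors. Each genotype thus had 1 tumor with high and 1 with low Sox9, and the range was wider in only 1.89% of tested genes. The genotype difference was 0.90 log2 units (standard error 1.65, 95% interval -3.47 to 5.27, adjusted p = 0.867 from limma), and it was 2.96 without tumor 26044 and -1.16 without tumor 26043. The ratio of Sox10 to Sox9 FPKM was 4.93 and 105 in the triple-mutant and 15.3 and 106 in the double-mutant tumors, so the 2 tumors with low Sox9, 1 of each genotype, kept Sox10 and had nearly the same ratio.

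Sox8, the third SOXE gene, chosen here after its values were seen, was at 6.24, 71.7, 19.6 and 3.55 FPKM. It was highest in tumor 26044, where Sox9 was low, but also low in tumor 26050, where Sox9 was low too. Its ratio to Sox10 ran from 0.0157 to 0.267, so Sox10 had the higher level of the pair in every tumor.

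Sox4, a SOXC factor linked to epithelial-mesenchymal transition, was the other stable gene. On chromosome 13 (28950730 to 28953682, mm10), it was at 114 and 186 FPKM in the triple-mutant and at 151 and 146 FPKM in the double-mutant tumors. The double-mutant tumors lay between the triple-mutant ones. The fold change was -0.03 on the log2 scale (standard error 0.34, 95% interval -0.93 to 0.87, adjusted p = 0.981 from limma), -0.38 without tumor 26044 and 0.32 without tumor 26043. Over 54.1% of the 50-base stretches of its transcript, the antisense gene Gm26735 covers the same bases, and the strand setting of the quantification is not given in the sources used here, so reads of the pair may not have been told apart. The SOXC relatives Sox11 and Sox12 were lower in level than Sox4: Sox11 was at 2.83, 3.51, 0.178 and 1.63 FPKM and Sox12 at 13.4, 25.3, 8.72 and 9.94 FPKM. Both were higher in the triple-mutant tumors without overlap, with log2 fold changes of 1.24 and 0.92 (adjusted p = 0.519 and 0.538 from limma).

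Of 12 paralogs of the markers, 11 were tested and 0 passed. Higher in both triple-mutant tumors were 3 (21.3% of all tested genes), and higher in both double-mutant tumors were 2 (22.9%). Of the 11 tested, 1, Foxc2, passed the filter through the double-mutant tumors alone and is among those 2. The median log2 fold change was -0.18. Pdgfra, a receptor kinase gene next to Kit that marks stromal cells, was higher in both triple-mutant tumors. Its level was 2.90, 19.1, 1.63 and 1.44 FPKM.

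Genes known as direct targets of SOX9 or SOX10 in cartilage or glia gave no shared direction. Of 17 listed, 11 were tested and 0 passed. Higher in both triple-mutant tumors were 3 (21.3% of all tested genes), and higher in both double-mutant tumors were 3 (22.9%). The median log2 fold change was -0.02. Erbb3, a receptor of the EGF receptor family, was at 25.8, 5.70, 32.1 and 33.4 FPKM, lowest in tumor 26044, with both triple-mutant tumors below both double-mutant tumors. Of the 11 tested, 2 passed the filter through 1 genotype alone.

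The cartilage collagens on that list other than Col11a2 were at 7.24 FPKM or more in all 4 tumors. Col9a1 was at 7.24, 31.5, 107 and 46 FPKM, higher in both double-mutant tumors (log2 fold change -2.12, adjusted p = 0.511 from limma). Col2a1, the main cartilage collagen and chosen here after its values were seen, was at 18.1, 77.5, 85.2 and 34.8 FPKM, with overlapping genotypes. Neither of these 2 followed Sox9, which was highest in tumor 26043, where both were lowest. Col11a2, also chosen after its values were seen, was at 5.34, 0.414, 3.54 and 0.443 FPKM. Like Sox9, it was highest in tumor 26043 and low in tumors 26044 and 26050. The other listed collagens, Col9a2, Col9a3 and Col11a1, were highest in other tumors than 26043. Aggrecan (Acan), in contrast, stayed at or below 0.665 FPKM.

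Markers of melanocytes and Schwann cells, the cell types best known for SOX10, were low next to it. Over 9 such genes the summed level was 45.1 and 59.7 FPKM in the triple-mutant and 13.6 and 14.1 FPKM in the double-mutant tumors, 6 were tested and 0 passed. Mbp had the highest level of the list in each tumor, at 20.2, 42.0, 7.07 and 7.81 FPKM. The pigment gene Tyrp1 was at 0 in 3 tumors and at 0.212 FPKM in tumor 26043, and Dct was at 3.78, 0, 0.0297 and 0 FPKM. The part of these cell types in the level of Sox10 was not tested.

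Foxc1, a forkhead factor of mesoderm and neural crest that is a marker of basal-like breast cancer, was high in 3 tumors. On chromosome 13 (31806646 to 31810635, mm10), it was at 42.5 and 3.35 FPKM in the triple-mutant and at 41.2 and 24.4 FPKM in the double-mutant tumors. Tumor 26044 alone was low, below both double-mutant tumors, and tumor 26043 was above them. The log2 fold change was -1.25 (standard error 1.16, 95% interval -4.31 to 1.81, adjusted p = 0.734 from limma) and turned to 0.41 without tumor 26044. Its relative Foxc2 was at 1.70 FPKM or less.

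Bcl11a, a zinc-finger factor of luminal progenitors that is often raised in triple-negative breast cancer, was at 24.9 and 6.89 FPKM in the triple-mutant and at 13.0 and 7.27 FPKM in the double-mutant tumors (chromosome 11, 24078056 to 24173558, mm10). Tumors 26044 and 26050 were the low ones, the same 2 as for Sox9. Its log2 fold change was 0.41 (standard error 0.68, 95% interval -1.39 to 2.21, adjusted p = 0.851 from limma), and it was 1.27 without tumor 26044 and -0.45 without tumor 26043.

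Kit and Prom1 had the same order of tumors at the low end and the high end. KIT is the receptor of stem cell factor and marks luminal progenitors, and PROM1 is a glycoprotein of membrane protrusions. Kit (chromosome 5, 75574987 to 75656721, mm10) was at 89.6 and 21.8 FPKM in the triple-mutant and at 52.5 and 115 FPKM in the double-mutant tumors. Prom1 (chromosome 5, 43993622 to 44101736, mm10) was at 17.7 and 4.81 FPKM in the triple-mutant and at 16.3 and 48.2 FPKM in the double-mutant tumors. For both genes tumor 26050 was the highest and tumor 26044 the lowest, with tumors 26043 and 26048 between them. The fold changes were -0.80 log2 units for Kit (standard error 0.80, 95% interval -2.90 to 1.31, adjusted p = 0.752 from limma) and -1.49 for Prom1 (standard error 0.80, 95% interval -3.59 to 0.62, adjusted p = 0.589 from limma). Prom1 thus had the lowest fold change of the 10 markers, with overlapping genotypes. Without tumor 26044 the values were 0.20 for Kit and -0.65 for Prom1. The ratio of Kit to Prom1 FPKM, a measure chosen after the values were seen, was 5.07 and 4.52 in the triple-mutant and 3.22 and 2.38 in the double-mutant tumors.

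The ligand of KIT, Kitl, was made in all tumors, at 12.2 and 11.2 FPKM in the triple-mutant and at 9.70 and 4.52 FPKM in the double-mutant tumors (log2 fold change 0.73, standard error 0.43, adjusted p = 0.619 from limma). Its order was not that of the receptor. Tumor 26050, which had the most Kit, had the least Kitl, and the ratio of Kit to Kitl ran from 1.94 in tumor 26044 to 25.4 in tumor 26050. Mast cells also carry KIT. Of 8 mast cell genes 0 reached the filter, their sum was at 2.56, 1.41, 2.26 and 7.56 FPKM, and Ms4a2 was at 0 in every tumor. The sum was highest in tumor 26050, where Kit was highest. The part of mast cells in the level of Kit was not tested.

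Cd24a was the marker whose genotypes did not overlap. CD24 is a small anchored glycoprotein of epithelial cells, and the gene (chromosome 10, 43579169 to 43584265, mm10) was at 296.5 and 89.5 FPKM in the triple-mutant and at 310.6 and 367.5 FPKM in the double-mutant tumors. Tumor 26043 lay just below tumor 26048, and most of the difference was tumor 26044. The log2 fold change was -1.05 (standard error 0.63, 95% interval -2.71 to 0.61, adjusted p = 0.620 from limma) and shrank to -0.19 without tumor 26044. With the midpoint of the Cufflinks interval as the level, the genotypes overlapped for Cd24a as well. Of its 50-base stretches, 2.75% are shared with Gm6212, so a small part of its reads is uncertain in origin.

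Cd44, the hyaluronan receptor gene (chromosome 2, 102811142 to 102901665, mm10), was at 54.2 and 18.5 FPKM in the triple-mutant and at 31.5 and 29.4 FPKM in the double-mutant tumors. The double-mutant tumors were nearly alike and lay between the triple-mutant ones. The fold change was 0.06 log2 units (standard error 0.56, 95% interval -1.42 to 1.54, adjusted p = 0.976 from limma), and it was 0.81 without tumor 26044 and -0.69 without tumor 26043. High CD44 with low CD24 is the classic surface phenotype of human breast cancer cells that seed tumors. The ratio of Cd44 to Cd24a FPKM, chosen after the values were seen, was 0.183 and 0.207 in the triple-mutant and 0.102 and 0.0799 in the double-mutant tumors. Cd24a had the higher level in every tumor, and the ratio was higher in both triple-mutant tumors, including tumor 26044 with its low Epcam. Tumor 26044 nevertheless had the lowest Cd44, at 18.5 FPKM. Tumor 26043 kept Cd24a at 296.5 FPKM, near the 310.6 FPKM of tumor 26048. The ratio is of RNA in whole tumors and does not show the surface phenotype of cells. It was not given a test beyond the exact limit stated above.

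No ligand or partner of the surface markers passed the test. Of 14 listed, among them the KIT ligand above and partners of CD44 and PROCR, 8 were tested, 3 were higher in both triple-mutant tumors (21.3% of tested genes) and 2 in both double-mutant tumors (22.9%), and the median log2 fold change was -0.05. Has2, which makes hyaluronan, was at 10.2 and 6.54 against 3.78 and 0.554 FPKM (log2 fold change 1.75, adjusted p = 0.508 from limma), and Hyal1, which degrades it, was at 6.74 and 12.7 against 4.53 and 1.37 FPKM (1.51, adjusted p = 0.511 from limma). The genotypes did not overlap for either of these 2 enzymes of opposite function. Osteopontin (Spp1), a secreted ligand of CD44, was at 199 and 16.7 against 307 and 331 FPKM (-2.43, adjusted p = 0.568 from limma), lowest in tumor 26044 as Cd44 was. Hmmr, another hyaluronan-binding protein, was at 7.83 and 11 against 12.3 and 21.2 FPKM. Hyal2, a second hyaluronidase, was nearly level, between 44.7 and 52.3 FPKM. Leukocytes also carry CD44, and the pan-leukocyte gene Ptprc was at 3.67, 1.61, 3.97 and 4.02 FPKM, lowest in tumor 26044 like Cd44. Over the 11 leukocyte genes the sum was 147 and 149 against 460 and 308.2 FPKM. Of these, 5 were tested, 0 passed and 4 were higher in both double-mutant tumors (22.9% of all tested genes). The part of leukocytes in the level of Cd44 was not tested.

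Procr, the receptor of activated protein C, was the least abundant marker. On chromosome 2 (155751217 to 155755478, mm10), it was at 1.33 and 5.70 FPKM in the triple-mutant and at 1.92 and 1.62 FPKM in the double-mutant tumors. Only tumor 26044 stood out. The log2 fold change was 0.51 (standard error 0.59, 95% interval -1.04 to 2.06, adjusted p = 0.786 from limma) and turned to -0.25 without tumor 26044. PROCR is also an endothelial receptor, and endothelial markers were, like Procr, highest in tumor 26044. Of 8 listed, 7 were tested and 0 passed, and all 7 were highest in that tumor, against 24.2% of all tested genes. The sum of the list was 38.2, 122, 62.5 and 33.8 FPKM. The endothelial adhesion gene Pecam1 was at 8.54, 28.5, 15.0 and 8.65 FPKM. The part of blood vessels in the Procr level was not tested. Its ligand protein C (Proc) was at 1.53 FPKM or less, while F2r, the thrombin receptor through which PROCR signals, was at 9.19, 15.8, 13.4 and 14.4 FPKM, and thrombomodulin (Thbd), which helps to activate protein C, was at 0.956, 1.36, 2.36 and 0.930 FPKM.

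**Figure D2:**
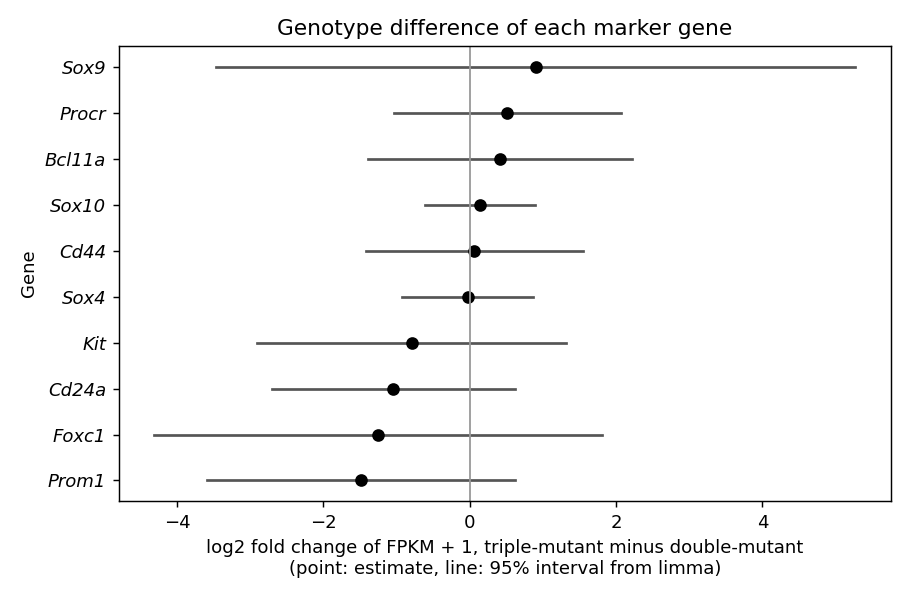
Log2 fold change of FPKM + 1 (x axis, triple-mutant minus double-mutant, n = 2 tumors each) for the 10 markers, with points for the estimates and lines for the 95% intervals from limma. All 10 intervals contain 0, and they are narrowest for Sox10 (-0.61 to 0.90) and Sox4 (-0.93 to 0.87) and widest for Sox9 (-3.47 to 5.27).

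The spread within a genotype was set against the difference between genotypes. For 10 of 10 markers the 2 triple-mutant tumors differed by more than the genotype means did, against 55.9% of tested genes, and for 7 of 10 the 2 double-mutant tumors did, against 47.8%. On the log2(FPKM + 1) scale the median difference of the markers was 1.70 between the triple-mutant tumors, 0.55 between the double-mutant tumors and 0.65 between the genotype means. Over all tested genes those medians were 0.45, 0.36 and 0.38.

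Tumor 26043 was closer to the double-mutant tumors in these markers than to the other triple-mutant tumor. The median difference of the markers was 0.36 log2 units between tumors 26043 and 26048 and 0.59 between 26043 and 26050, against 1.70 between 26043 and 26044. Tumor 26044 differed from 26048 by 1.21 and from 26050 by 0.997. Over all tested genes tumor 26043 had the same order with smaller gaps. Its medians there were 0.374 to tumor 26048, 0.444 to tumor 26050 and 0.449 to tumor 26044. The 6 pairs of tumors had medians over all tested genes between 0.36 and 0.57.

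**Figure D3:**
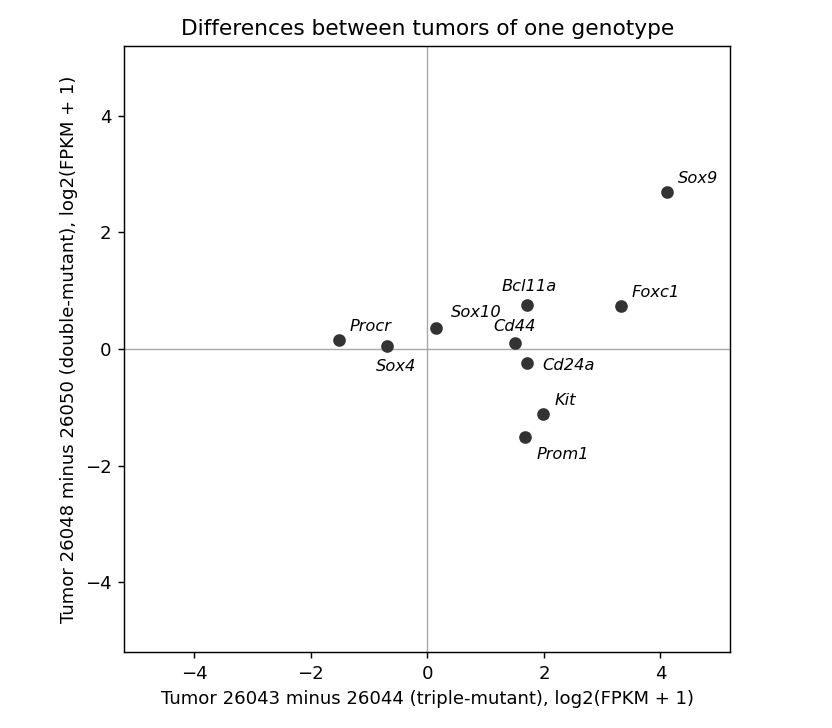
Difference between the 2 triple-mutant tumors (x axis, 26043 minus 26044) against the difference between the 2 double-mutant tumors (y axis, 26048 minus 26050) on the log2(FPKM + 1) scale, 1 point per marker. Sox9 lies far out on both axes (4.11 and 2.69), Foxc1 on the triple-mutant axis (3.32), Kit and Prom1 change sign between the axes, and Sox10 and Sox4 lie near 0.

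The genes whose profile over the 4 tumors was most like that of a marker were found for the 5 markers with a range of at least 2 log2 units. Likeness was the root mean square difference of the centred log2 values over 4 tumors, and no shared control is implied. Nearest to Foxc1 was the epithelial cadherin gene Cdh1 (0.122 log2 units), at 100, 10.4, 122 and 69.7 FPKM, followed by Spns2 (0.126) and Anxa1 (0.142). Nearest to Cd24a were Igsf5 (0.059), the junction gene F11r (0.063) and Rhou (0.080). For Kit they were Sap30bp (0.150), Tbc1d1 (0.155) and the mitotic gene Birc5 (0.155), the last at 132, 41.3, 78.6 and 163 FPKM. Abcb9 (0.12), Susd4 (0.166) and Ptpn6 (0.197) were nearest to Prom1. Sox9 had no profile as close, with Trpv6 (0.250), Foxq1 (0.278) and H2-Q7 (0.333) nearest. Igsf5 was at 1.97, 0, 2.32 and 2.72 FPKM, and Trpv6, Abcb9 and Susd4 were also below 1 FPKM in tumor 26044. At such low levels the 1 added before the log shapes the likeness.

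Some epithelial genes were, like 6 of the markers, lowest in tumor 26044, and others were not. Of the 5 luminal keratin and mucin genes 4 were lowest there, among them Krt8 (579, 98.3, 708 and 701 FPKM) and Krt18 (624, 80.3, 729 and 656 FPKM), while Krt19 was at 1154, 194, 139 and 56.7 FPKM. Of the 9 tested basal and myoepithelial genes, 0 were lowest there, against 39% of all tested genes. Epcam was 20.1-fold apart between the highest and lowest tumor, so division by it raised the log2 difference of every gene, triple-mutant minus double-mutant, by the same 2.25, and division by Krt8 and Krt18 raised it by 1.59. Sox10 was 0.86 and 10.5 times Epcam in the triple-mutant and 0.565 and 0.578 times in the double-mutant tumors, and Cd44 was 0.156 and 0.720 times against 0.0611 and 0.0753 times. Kit relative to Epcam was 0.258 and 0.847 against 0.102 and 0.295, with overlap, and Foxc1 relative to Epcam was 0.123 and 0.130 against 0.0799 and 0.0624. Relative to Epcam, 5 of the 10 markers were higher in both triple-mutant tumors, against 59.8% of tested genes, and 0 in both double-mutant tumors, against 0.525%. Relative to Krt8 and Krt18 the counts were 4, against 53% of tested genes, and 0, against 1.07%. The shares of the markers were thus near or below those of all tested genes. These ratios were chosen after the data were seen and have no test, and the part of epithelial content in the marker levels was not tested.

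**Figure D4:**
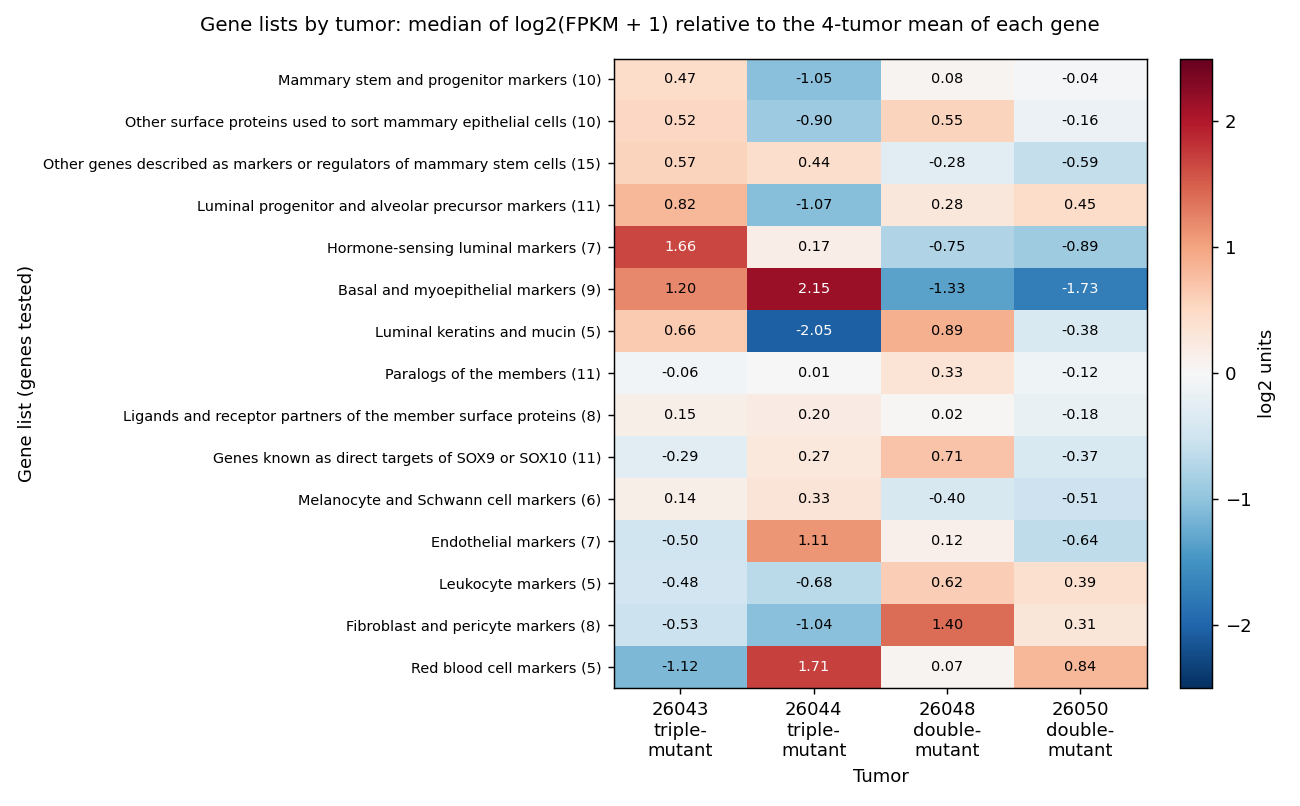
Median of log2(FPKM + 1) over the tested genes of each list, relative to the mean of each gene over the 4 tumors (color, log2 units), by tumor (columns) and list (rows, number of tested genes in brackets). The markers were lowest in tumor 26044 (-1.05) together with other sorting markers (-0.90), luminal progenitor genes (-1.07) and luminal keratins (-2.05), while basal and myoepithelial genes were high in both triple-mutant tumors (1.20 and 2.15).

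Several other genes described for mammary stem cells lay apart by genotype, although none passed the test. Of 16 listed, 15 were tested, and 1 of the 15 passed the filter through 1 genotype alone. Higher in both triple-mutant tumors were 7 (21.3% of all tested genes), and higher in both double-mutant tumors were 2 (22.9%). The median log2 fold change was 0.63. Trp63, whose protein p63 is the master factor of basal cells, was at 28.5 and 48.1 against 1.24 and 0.670 FPKM (log2 fold change 4.30, adjusted p = 0.143 from limma). Snai2, which encodes SLUG, the partner of SOX9, was at 20.9 and 15.0 against 1.42 and 0.413 FPKM (3.34, adjusted p = 0.179 from limma). Unlike Sox9, it was high in both triple-mutant tumors. Lgr6, a receptor of R-spondins, was at 26.4 and 82.6 against 5.13 and 0.298 FPKM (4.09, adjusted p = 0.396 from limma), and Foxp1, a forkhead factor, was at 47.7 and 37.9 against 6.23 and 2.77 FPKM (3.06, adjusted p = 0.196 from limma). These 4 were named because their genotypes did not overlap, so their high level in tumor 26044 follows from that choice. Of the 15 tested genes of this list, 6 were lowest in tumor 26044. For the markers it was 6 of 10, and for all tested genes 39%. The difference between this list and the markers was not tested.

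Most basal and myoepithelial genes lay apart in the same direction. Of 10 listed, 9 were tested and 0 passed. Higher in both triple-mutant tumors were 7 (21.3% of all tested genes), and higher in both double-mutant tumors were 0 (22.9%). The median log2 fold change was 3.06. Krt5, the basal keratin, was at 596 and 114 against 1.15 and 2.06 FPKM, and Krt14, its partner, at 611 and 42.5 against 2.08 and 6.99 FPKM. Sox10 and Kit, which are expressed in tumors of both genotypes, were thus present at high levels in the double-mutant tumors where these keratins were low.

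Among luminal progenitor genes more had the reverse order, but the genotypes overlapped for 6 of the 11 tested. Of 12 listed, 11 were tested and 0 passed. Higher in both triple-mutant tumors was 1 (21.3% of all tested genes), and higher in both double-mutant tumors were 4 (22.9%). The median log2 fold change was -1.04. Elf5, the alveolar fate factor, was at 43.6 and 4.84 against 66.0 and 103 FPKM (-2.37, adjusted p = 0.535 from limma), Ehf, an ETS factor, at 46.5 and 2.41 against 62.1 and 50.2 FPKM, and Csn3, the kappa-casein gene, at 81.1 and 10 against 241 and 1990 FPKM. As for Prom1, tumor 26050 was the highest and 26044 the lowest for Elf5 and Csn3. Notch3, the gene of this list higher in both triple-mutant tumors, was at 25.4 and 8.31 against 7.61 and 1.82 FPKM.

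Surface proteins used beside CD24 and CD44 to sort mammary cells were mostly lowest in tumor 26044. All 10 listed were tested and 0 passed. Higher in both triple-mutant tumors were 0 (21.3% of all tested genes), and higher in both double-mutant tumors were 3 (22.9%). Lowest in tumor 26044 were 8 of 10, against 39% of all tested genes. The median log2 fold change was -0.49. Itgb3 (CD61), a luminal progenitor integrin, was at 9.41 and 4.13 against 16.3 and 13.8 FPKM, and Itgb1 (CD29), the integrin used to enrich basal stem cells, at 80.8 and 60.6 against 134 and 99.3 FPKM. Both integrins were lower in the triple-mutant tumors, with log2 fold changes of -1.13 and -0.71 (adjusted p = 0.520 and 0.540 from limma).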

How the data were processed

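RNA of 4 primary mammary tumors of female mice, 2 triple-mutant and 2 double-mutant, had been poly-T selected, made into dUTP libraries and sequenced as 50-base single-end reads. The deposited tables, 1 per tumor, hold the FPKM that the authors estimated with Cufflinks 2.1.1 after alignment with TopHat2 2.0.10 and Bowtie 0.12.9 (build mm10, per the submitters' processing notes), with an interval and a status for each gene. The authors also counted reads and tested them with DESeq2 1.6.2, and counts were not used here. FPKM depends on the assumed transcript length, and 5605 to 6626 genes per tumor lay outside their own interval. Depth is unknown. Starts in the tables count from 0, so 1 was added.

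Groups came from the sample labels. The tables were joined by symbol and position, a minimum of 1 FPKM in 2 or more of the 4 tumors left 12752 genes, and limma 3.58.1 (R 4.3.3, eBayes with a trend), tested on simulated data, compared their log2(FPKM + 1), with Benjamini-Hochberg adjustment over all 12752 genes at 0.05. A fold change of FPKM + 1 understates the change of low genes. Pandas 2.3.3 and matplotlib 3.10.9 in Python 3.11.15 gave tables and plots. The 10 markers and all gene lists were chosen with earlier results of these data known. Named genes are the markers, the targeted genes, the tested partners, up to 4 genes per list with the largest fold change among those whose genotypes did not overlap, cell type markers at 0 and the 3 nearest profiles, and others are named as chosen after their values were seen or for their known role. Some genes that this rule names are not reported here. Alternatives were another pseudocount, other filters, rescaling, no trend, the interval midpoint and each tumor left out. Ratios to epithelial genes were added after seeing the data. Shared 50-base stretches were searched in GENCODE M21 transcripts.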

Additional observations from a re-analysis of the deposited data

How the results depend on the processing

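Of the 10 alternatives that keep all tumors, none brought a marker past the threshold. The count of all genes called moved from 0 to 6 with quantile normalization, 5 without the trend and 1 with the interval midpoint as the level. With the midpoint, the genotypes overlapped for every marker (0 higher in both double-mutant tumors), and the log2 fold changes near 0 turned sign, to -0.034 for Sox10 and 0.10 for Sox4. A filter of 5 FPKM left out Procr, so it has no value there.

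Leaving out 1 tumor at a time kept the count of called genes at 0. The markers higher in the triple-mutant tumors then numbered 0 to 5, and those higher in the double-mutant tumors 1 to 6. The log2 fold changes ran from -1.16 to 2.96 for Sox9, -0.042 to 0.33 for Sox10, -0.38 to 0.32 for Sox4, -2.91 to 0.41 for Foxc1, -0.25 to 1.27 for Procr, -0.69 to 0.81 for Cd44, -1.79 to 0.20 for Kit and -0.45 to 1.27 for Bcl11a, all crossing 0, while Cd24a (-1.91 to -0.19) and Prom1 (-2.33 to -0.65) stayed below 0.

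Relative to Krt8 and Krt18, chosen after seeing the data and without a test, the differences were 1.74 for Sox10, 1.56 for Sox4, 0.18 for Foxc1, 1.65 for Cd44, 0.54 for Cd24a, 0.78 for Kit, -0.014 for Prom1 and 2.02 for Bcl11a, with 4 markers higher in both triple-mutant and 0 in both double-mutant tumors. Relative to Epcam they were 3.21 for Sox9, 2.39 for Sox10, 2.22 for Sox4, 0.84 for Foxc1, 2.31 for Cd44, 1.20 for Cd24a, 1.43 for Kit, 0.65 for Prom1 and 2.68 for Bcl11a, with counts of 5 and 0. Each ratio adds a constant to every gene (1.59 for Krt8 and Krt18, 2.25 for Epcam), which by construction turned the sign of Sox4, Foxc1, Cd24a and Kit, and with Epcam that of Prom1.

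No paired analysis was possible because the labels tie no tumor of one genotype to a tumor of the other. The study calls the females littermates, and which tumors share a litter is not given in the sources used here. With 2 tumors each, intervals span several log2 units for Sox9 and Foxc1, and the read depth behind each value is unknown.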

Other observations

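Hormone-sensing luminal genes, which mark mature cells rather than progenitors, mostly lay apart by genotype without passing the test. Of 8 listed, 7 were tested and 0 passed, and 2 of the 7 passed the filter through 1 genotype alone. Higher in both triple-mutant tumors were 6 (21.3% of all tested genes), and higher in both double-mutant tumors were 0 (22.9%). The median log2 fold change was 2.23. Foxa1, the pioneer factor of the estrogen receptor, was at 40.9 and 8.44 against 3.62 and 0.341 FPKM (log2 fold change 2.997, adjusted p = 0.480 from limma), Areg, an estrogen-induced growth factor gene, at 30.1 and 7.86 against 2.12 and 2.07 FPKM, Wnt4, a progesterone target, at 19.7 and 3.01 against 1.28 and 0.652 FPKM, and the cofactor gene Cited1 at 11.9 and 81.3 against 0.773 and 4.78 FPKM.

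Of 5 luminal keratin and mucin genes, Krt19 alone was higher in both triple-mutant tumors (21.3% of all tested genes), at 1154 and 194 against 139 and 56.7 FPKM. Higher in both double-mutant tumors were 2 (22.9% of all tested genes). None passed, and the median log2 fold change was -1.56.

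Of 9 fibroblast and pericyte genes, 8 were tested and 0 passed. Higher in both triple-mutant tumors was 1, Pdgfra (21.3% of all tested genes), and higher in both double-mutant tumors were 4 (22.9%). Among those 4 were Col1a1 at 102 and 32.6 against 486 and 200 FPKM and Col3a1 at 22.7 and 14.0 against 135 and 83.1 FPKM. The summed level of the list was 229 and 232 against 1107 and 500.8 FPKM. The 6 adipocyte genes summed to 9.43 and 261 against 2015 and 36.4 FPKM, with tumor 26048 far above the others, and 2 were tested with 0 passing. Almost all of the sum in tumor 26044 was Fabp4, at 261 FPKM. Adipoq and Plin1 were at 0 FPKM there, and Cfd was at 0.177 FPKM. For the red blood cell list, 5 entries were tested with 0 passing, and its sum was 38.3 and 206.5 against 68.4 and 92.9 FPKM. Its entries went opposite ways in tumor 26044. Every Hba-a1 and Hba-a2 entry was at 0 FPKM there, while Hbb-b2 was at 146 FPKM, its highest value. The part of these cells in the marker levels was not tested.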
